A study of Homo sapiens with 10 samples.

Results

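The nuclear lamina and its anchors at the inner nuclear membrane were followed through 10 genes, out of 60554 genes in the tables, chosen by symbol: EMD, LMNA, LMNB1, LMNB2, LBR, LEMD3, SUN1, SUN2, TMPO and BANF1. These genes were chosen with earlier results of these data known. RNA was sequenced from Caco-2 cells, a human colon carcinoma line that takes on features of enterocytes, seeded as monolayers. All the cells came from a stable, puromycin-selected clone that expressed dCas9-KRAB, a Cas9 that does not cut DNA joined to a repressor domain, and all were infected with a guide lentivirus that carries hygromycin resistance. In 5 libraries the guide plasmid was empty (gCtl), in 3 it carried guide g1 and in 2 guide g2, both directed against the long non-coding RNA LHFPL3-AS2. No label ties a library to a separate culture or infection, so the p-values below measure the spread between these libraries, which may be technical.

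The lamina is a meshwork of A-type lamins (LMNA) and B-type lamins (LMNB1, LMNB2) under the inner nuclear membrane. Emerin (EMD), MAN1 (LEMD3) and LAP2 (TMPO) carry a LEM domain, which binds the small DNA-bridging protein BAF (BANF1), and LBR ties the membrane to B-type lamins and heterochromatin. SUN1 and SUN2 cross the inner membrane and hold the KASH proteins of the outer membrane, which connect the nucleus to the cytoskeleton. In epithelial cells these proteins take part in nuclear position, in resistance to force and in the rebuilding of the envelope after mitosis.

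The libraries were of the QuantSeq type, in which each read derives from near the poly(A) tail, so the end of a transcript decides what is counted. The windows below are the last 30 bases (for SUN1 and LAP2 alpha, 30 bases around the signal that stop shortly before the end), from the GENCODE v29 annotation on GRCh38, plus strand, of transcripts that held many of the counts of the genes whose results are given by transcript. For BANF1 the coding mRNA is shown. The capitals mark the polyadenylation signal AATAAA or ATTAAA where one lies in the last 50 bases.
EMD, chrX:154381494-154381523: acacacAATAAAagccccgtttatttgtaa
SUN1, chr7:874870-874899: ggtttaAATAAAgagttttaatttttaaaa
BANF1, chr11:66004117-66004146: tttttagatcAATAAAgtcagtggctttca
LMNA, lamin A end, chr1:156140060-156140089: atcaatacactagttgtttctacccctggc
LMNA, counted transcript at the lamin C end, chr1:156138132-156138161: ctctctcattcctgaccgcccctccactcc
TMPO, LAP2 alpha, chr12:98535603-98535632: aaattcAATAAAgttgttaaatttgaacag
TMPO, LAP2 beta and gamma, chr12:98550350-98550379: aactgtgatttctggataacatttcttatg
LMNB1, last exon, chr5:126836542-126836571: tgtgttttttctttttttttaagttcttat
LMNB1, inner exon, chr5:126810226-126810255: tggattctgggcgtcaaattgagtatgagt
Among 56789 protein-coding transcripts of the tested genes, 43% held either signal in the last 50 bases of the annotated strand. EMD, SUN1, BANF1 and LAP2 alpha held AATAAA. The transcripts to which most LMNB1 and most LMNA counts were assigned end without either signal, which says only that these letters are not in that window. The annotated lamin C mRNA (ENST00000368301), whose window is not shown, ends upstream of that LMNA transcript and holds ATTAAA, which starts 23 bases from its end.

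Depth ran from 3838803 to 8730468 estimated counts per library, and same-group pairs differed by more than sampling noise (chi-square per degree of freedom, 4.28 to 26). LHFPL3-AS2, the targeted RNA, was at 0.84 to 3.73 RPM (reads scaled to the library total) in gCtl, 2.03 to 3.95 in g1 and 2.16 and 6.01 in g2. Its level in these counts was thus not lower in the libraries labelled knockdown, and g1 and g2 are used here as labels. The values rest on few reads: 4.39 to 20.7 estimated counts per library in gCtl, 17.7 to 18.4 in g1, and 13.2 and 44.0 in g2. The study reported by qPCR that this RNA was depleted with both guides, a measurement that was not analysed here. Counted transcripts held 46.6% to 46.9% GC in gCtl, 46.7% to 47.2% in g1 and 47.9% to 48.2% in g2. The 7 epithelial markers summed to 1808 to 2256 CPM (counts scaled to the TMM-adjusted library total) in gCtl and 1642 to 2200 in the other libraries. Their median log2 fold change over both guides was -0.33, with 0 called. In g2 KRT18 was called lower (-0.78, edgeR adjusted p = 0.0494), 14.3% of the list against 23.7% of all tested genes. The markers of fibroblasts, leukocytes and endothelium each summed to at most 10.4 CPM. Within these low sums, the leukocyte markers were at 2.82 to 4.33 CPM in gCtl and 0.436 to 2.74 in the other libraries (CD14, the 1 marker tested, was called lower), and the endothelial markers at 2.07 to 3.65 and 2.41 to 9.93 (PECAM1, the 1 marker tested, was called higher in g1). Their part in the results below was not tested. The gCtl library numbered 5 lay nearest to the knockdown-labelled libraries for several of the 10 genes, and values without it are given where a call of one of the 10 genes turned on it.

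Of the 10 genes, 9 passed the filter (above 3 RPM in at least 20% of libraries), and SUN2 did not. A gene was called when it passed edgeR's quasi-likelihood test at 0.05, after Benjamini-Hochberg adjustment over 11640 genes, and changed at least 1.5-fold. With g1 and g2 pooled against gCtl, 2 of the 9 tested genes, EMD and SUN1, were called, both lower, against 19.2% of all tested genes called in either direction, 11.0% lower and 8.14% higher. The median log2 fold change of the 9 was -0.40, against 0.02 over all tested genes, and 6 of the 9 lay below 0. In this bulk RNA, fewer cells of a kind and less RNA per cell cannot be told apart. Levels are given below in CPM.

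**Figure D1:**
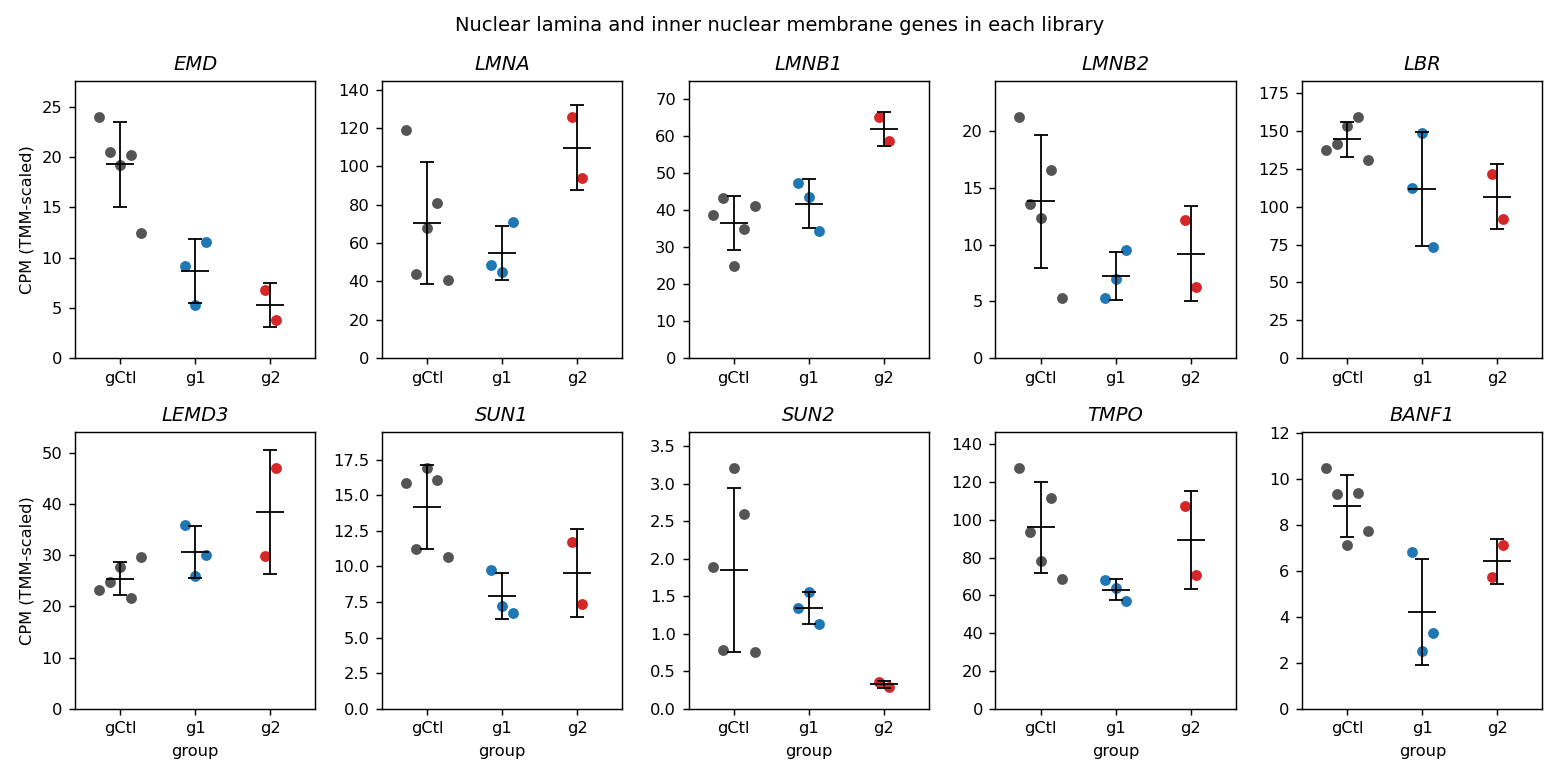
CPM of each of the 10 genes (y axis, from 0) by group (x axis). Each point is a library, the horizontal mark is the group mean and the bar is 1 SD (gCtl n = 5, g1 n = 3, g2 n = 2). All 5 knockdown-labelled libraries lie below the gCtl range for EMD and for BANF1.

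Emerin showed the largest difference of the 9 tested genes. EMD (ENSG00000102119.10, chrX:154379197-154381523) was at 24, 20.6, 19.2, 20.2 and 12.5 CPM in gCtl. It was at 9.16, 5.27 and 11.6 CPM in g1 and at 6.81 and 3.78 CPM in g2. Every knockdown-labelled library was below every gCtl library, the nearest being 11.6 CPM in g1 and 12.5 CPM in gCtl 5. Each library held 25 to 112 EMD reads, all of them on 1 transcript (ENST00000369842.8), so that division among isoforms did not enter these values. EMD fell by 1.38 on the log2 scale (SE 0.27, 2.6-fold, edgeR adjusted p = 0.00284) over both guides. It fell by 1.12 (SE 0.28, edgeR adjusted p = 0.0114) in g1 and by 1.87 (SE 0.35, edgeR adjusted p = 0.00162) in g2. The 2 guides differed by -0.75 for EMD (SE 0.37, g2 against g1), which did not pass the test (edgeR adjusted p = 0.26). Without gCtl 5 the decrease of EMD over both guides was 1.51 on the log2 scale (edgeR adjusted p = 0.00176). Without the g1 library at 5.27 CPM, the g1 value was -0.88 and its edgeR adjusted p was 0.0556.

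MAN1, a LEM protein that also binds SMAD proteins, was not lower where emerin was. LEMD3 (ENSG00000174106.2, chr12:65169571-65248327) was at 21.7 to 29.7 CPM in gCtl (median 24.8), at 36.0, 25.9 and 30.1 CPM in g1 and at 29.9 and 47.1 CPM in g2. Over both guides its log2 fold change was 0.41 (SE 0.17, edgeR adjusted p = 0.0942). LEMD3 rose in g2 by 0.60 on the log2 scale (SE 0.20, edgeR adjusted p = 0.0406). That call was lost in 12 of 24 alternatives, among them leaving out any of gCtl 1 to 4. Without the library at 47.1 CPM the value was 0.24 (edgeR adjusted p = 0.54), and with the length and GC trends removed it was 0.43 (edgeR adjusted p = 0.133). These trends were fitted in each library against the length and the GC content of the transcripts. Within a library, EMD reads made up 29.6% to 50.8% of the EMD and LEMD3 reads in gCtl, 16.9% to 27.8% in g1, and 18.5% and 7.43% in g2. The ranges of this share did not overlap between gCtl and the other libraries, and no test was run on it.

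BAF, which LEM proteins bind, was also below the gCtl range in every knockdown-labelled library, though its test over both guides missed the threshold. BANF1 (ENSG00000175334.7, chr11:66002079-66004149) was at 10.5, 9.36, 7.15, 9.39 and 7.74 CPM in gCtl. It was at 6.83, 2.53 and 3.29 CPM in g1 and at 5.74 and 7.12 CPM in g2, the last just under the lowest gCtl library. EMD and BANF1 were the 2 of 9 tested genes whose groups did not overlap and were lower, against 8.33% of all tested genes lower and 7.13% higher. Over both guides the log2 fold change of BANF1 was -0.78 (SE 0.29, edgeR adjusted p = 0.0591), and DESeq2 gave the same value with an adjusted p of 0.0409. In g1 BANF1 fell by 1.05 on the log2 scale (SE 0.32, edgeR adjusted p = 0.0287), and in g2 its value was -0.44 (edgeR adjusted p = 0.36). The g1 call was kept in 5 of the 10 fits without 1 library, with values from -1.57 to -0.82 and an edgeR adjusted p of up to 0.121. BANF1 is short and is counted from 12 to 51 reads per library, of which 61.3% were assigned to a non-coding transcript (ENST00000524628.1) that shares the end of the coding mRNA. With the trend on transcript length removed, the value over both guides was -0.44 (edgeR adjusted p = 0.265) and the g1 value was -0.75 (edgeR adjusted p = 0.0941). With protein-coding transcripts alone, a fit that leaves out most BANF1 reads, the g1 value was 0.17 (edgeR adjusted p = 0.89). The non-coding transcript had a mean of 6.15 CPM in gCtl and 1.28 in g1. The coding transcripts ENST00000445560.6 and ENST00000312175.6 had means of 1.84 and 0.786 CPM in gCtl, and 2.45 and 0.481 in g1. No test was run on single transcripts of BANF1.

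The g1 libraries alone held 4 called genes of the 9, all lower (EMD, BANF1, SUN1 and TMPO), against 16.8% of all tested genes called in either direction and 9.94% called lower. The g2 libraries held 3 of the 9, EMD lower and LMNB1 and LEMD3 higher, against 23.7% of all tested genes called, 13.0% lower and 10.7% higher. In the direct test of g2 against g1, edgeR called 0 of the 9, against 4.98% of all tested genes, 3.42% lower and 1.56% higher. For that comparison 2 of the 9 (LMNA and LMNB1) had an unadjusted p under 0.05, a limit for which no share over all tested genes is given. DESeq2 and limma also called 0 of the 9. The comparisons with gCtl share the same 5 control libraries.

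**Figure D2:**
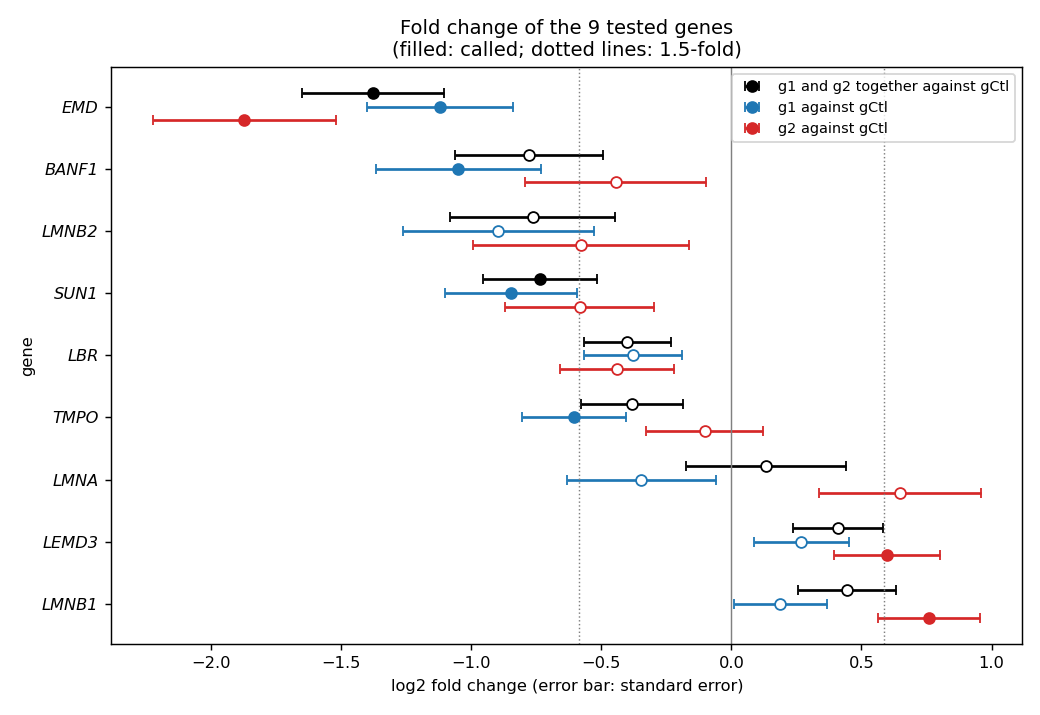
log2 fold change (x axis) of the 9 tested genes (y axis), ordered by the value over both guides, for both guides together, g1 and g2 against gCtl. Bars are the standard error, filled points are called and dotted lines mark 1.5-fold. EMD is filled in all 3 comparisons, at -1.38, -1.12 and -1.87.

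The 3 lamin genes did not move together. LMNA (ENSG00000160789.19, chr1:156082573-156140089) was at 119, 43.7, 68.0, 80.9 and 40.6 CPM in gCtl. It was at 48.5, 44.9 and 71.2 CPM in g1 and at 125.7 and 94.0 CPM in g2. All 3 g1 libraries were below both g2 libraries, and g1 lay within the wide gCtl range, with 1 g2 library above it. LMNA did not pass the test over both guides (log2 fold change 0.13, SE 0.31, edgeR adjusted p = 0.78), in g1 (-0.35, edgeR adjusted p = 0.42) or in g2 (0.65, edgeR adjusted p = 0.135). The difference of g2 from g1 was 0.99 on the log2 scale (SE 0.35, edgeR adjusted p = 0.11). Without gCtl 1, the gCtl library with most LMNA, the g2 value was 0.92 and passed the test (edgeR adjusted p = 0.0216), and with the length and GC trends removed it was 0.97 (edgeR adjusted p = 0.0278).

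Counts of LMNB1, which codes the B-type lamin B1, were higher in g2. LMNB1 (ENSG00000113368.11, chr5:126776623-126837020) was at 38.7, 43.1, 24.8, 34.9 and 41.2 CPM in gCtl. It was at 47.3, 43.5 and 34.3 CPM in g1, within or just above the gCtl range, and at 65.1 and 58.6 CPM in g2, above every gCtl library. LMNB1 rose in g2 by 0.76 on the log2 scale (SE 0.20, 1.69-fold, edgeR adjusted p = 0.0107). Its value was 0.19 in g1 (edgeR adjusted p = 0.49) and 0.44 over both guides (SE 0.19, edgeR adjusted p = 0.0972). With both trends removed the g2 value was 0.91 (edgeR adjusted p = 0.00274), and without the g2 library at 65.1 CPM it was 0.68 (edgeR adjusted p = 0.0507). Of all LMNB1 counts, 58.6% were assigned to a processed transcript that ends in the last exon (ENST00000504788.5) and 35.1% to one that ends in an inner exon (ENST00000463908.2). Both were highest in g2: the first was at 21.6 ± 4.05 CPM (SD, n = 5) with gCtl and at 36.6 ± 3.63 CPM (SD, n = 2) with g2, and the second at 12.8 ± 3.85 and 20.5 ± 0.442 CPM. No test was run on single transcripts of LMNB1. The full coding mRNA (ENST00000261366.9) held 2.38% of LMNB1 counts. With protein-coding transcripts alone the g2 value was 1.14 (SE 1.02, edgeR adjusted p = 0.46) and was not called.

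Lamin B2 pointed the other way. LMNB2 (ENSG00000176619.10, chr19:2427638-2456996, minus strand) was at 21.2, 13.6, 12.4, 16.6 and 5.28 CPM in gCtl. It was at 5.33, 6.96 and 9.5 CPM in g1 and at 12.2 and 6.25 CPM in g2. The gCtl 5 library, at 5.28 CPM, was below every knockdown-labelled library, while the other 4 gCtl libraries were above all of them. The log2 fold change over both guides was -0.76 (SE 0.32, edgeR adjusted p = 0.0929), and LMNB2 was called without gCtl 5 (-0.98, SE 0.26, edgeR adjusted p = 0.016) or without the g2 library at 12.2 CPM (-0.96, edgeR adjusted p = 0.0413). In g1 its value was -0.90 (edgeR adjusted p = 0.0963), and without gCtl 5 it was -1.12 and was called (edgeR adjusted p = 0.0138). The ratio of LMNB1 to LMNB2 counts within a library was 1.82 to 3.18 in gCtl 1 to 4 and 7.8 in gCtl 5. It was 3.62 to 8.88 in g1 and 5.34 and 9.37 in g2, so that gCtl 5 again fell among the knockdown-labelled libraries. The annotated TIMM13 gene overlaps the outermost end of LMNB2 on the same strand, but the transcript with 95.2% of LMNB2 counts (ENST00000325327.3) ends before that overlap.

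A-type lamin mRNAs have separate ends, lamin C in an extension of an inner exon and lamin A in the last exon. Of all LMNA counts, 69.9% were assigned to a retained-intron transcript that ends in the lamin C extension (ENST00000498722.2) and 26% to the full lamin A mRNA (ENST00000368300.8). Among coding transcripts alone lamin A made up 100% in every library, which leaves nothing to test. When transcripts were classed by the exon in which they end, a choice made after the data were seen, the lamin A end held 50%, 24.6%, 50.5%, 39.7% and 18.5% of the classed counts in gCtl. It held 20.6%, 15.9% and 10.8% in g1 and 41.1% and 17.7% in g2. The mean in gCtl was 36.7% ± 14.6 (SD, n = 5) against 21.2% ± 11.7 (SD, n = 5) for g1 and g2 pooled, a difference of -15.5 percentage points that did not pass a two-sided exact permutation test (p = 0.0873, the smallest possible being 0.00794). Without gCtl 5 the difference was -20 percentage points (exact p = 0.0476) and without the g2 library at 41.1% it was -20.4 (exact p = 0.0317), while without each of the other 8 libraries p was 0.0952 to 0.175. The lamin C end alone was at 32.9 to 59 CPM in gCtl, 37.6 to 63.4 CPM in g1 and 74 and 77.4 CPM in g2. Both g2 libraries were above every gCtl library at the lamin C end, and no test was run on that value. Lamin C mRNA and precursor RNA with the intron retained cannot be told apart at this end.

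**Figure D3:**
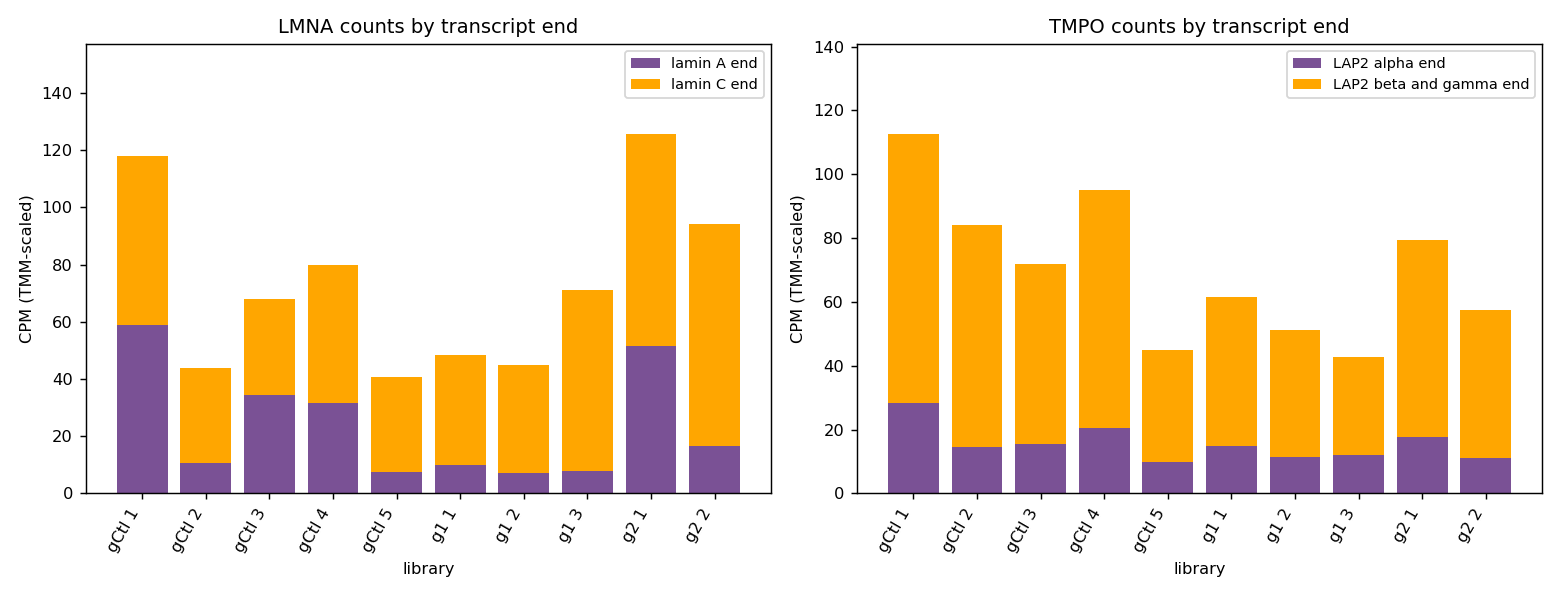
CPM (y axis, from 0) in each library (x axis) of LMNA counts at the lamin A and lamin C ends (left) and of TMPO counts at the LAP2 alpha end and the shared end of LAP2 beta and gamma (right), stacked. The lamin A part ranges from 10.8% to 50.5% of its bar, and the LAP2 alpha part from 17.3% to 28.4%.

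LAP2 comes from TMPO (ENSG00000120802.13, chr12:98515512-98550379), whose alpha form lacks a membrane segment and binds A-type lamins in the nuclear interior, while beta and gamma sit in the membrane. TMPO was at 127.5, 93.7, 78.2, 111.7 and 68.6 CPM in gCtl. It was at 68.0, 63.8 and 57.2 CPM in g1 and at 107.5 and 70.8 CPM in g2. All 3 g1 libraries were below the lowest gCtl library, though by less than 1 CPM at the nearest, and g2 lay within the gCtl range. TMPO fell in g1 by 0.60 on the log2 scale (SE 0.20, 1.52-fold, edgeR adjusted p = 0.0426), and its values were -0.10 in g2 (edgeR adjusted p = 0.77) and -0.38 over both guides (edgeR adjusted p = 0.163). The g1 call of TMPO was kept in 4 of the 10 fits that leave out a library each, and its edgeR adjusted p ranged from 0.0127 to 0.137 over them. LAP2 alpha made up 19.2% ± 2.55 (SD, n = 5) of the gCtl counts of coding TMPO transcripts, against 20.6% ± 3.12 (SD, n = 5) for g1 and g2 pooled. This difference of 1.48 percentage points was smaller than the SD of either group (two-sided exact permutation test, p = 0.476).

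LBR, which also acts as a sterol reductase, was lower in both groups without passing the test. LBR (ENSG00000143815.14, chr1:225401502-225428925, minus strand) was at 130.5 to 159.1 CPM in gCtl (median 141.7), at 112.5, 148.7 and 73.4 CPM in g1 and at 121.8 and 91.6 CPM in g2. Of the 5 knockdown-labelled libraries, 1 g1 library at 148.7 CPM was inside the gCtl range and the other 4 were below it. The log2 fold change was -0.40 over both guides (SE 0.17, edgeR adjusted p = 0.0929), -0.38 in g1 and -0.44 in g2. Without the g1 library at 148.7 CPM, the g1 value of LBR was -0.64 and was called (edgeR adjusted p = 0.0386), and over the 10 fits without 1 library the g2 value ran from -0.66 to -0.24.

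SUN1 fell, and SUN2 was too low to test under the filter. SUN1 (ENSG00000164828.17, chr7:816615-896435) was at 15.9, 11.2, 16.9, 16.1 and 10.7 CPM in gCtl. It was at 9.74, 7.25 and 6.71 CPM in g1 and at 11.7 and 7.33 CPM in g2. The g1 libraries were below every gCtl library, while 1 g2 library, at 11.7 CPM, was above 2 of the gCtl libraries. SUN1 fell by 0.74 on the log2 scale over both guides (SE 0.22, 1.66-fold, edgeR adjusted p = 0.025) and by 0.85 in g1 (SE 0.25, edgeR adjusted p = 0.0276), and in g2 its value was -0.58 (SE 0.29, edgeR adjusted p = 0.144). The call over both guides was kept in 5 of the 10 fits without 1 library, with an edgeR adjusted p of up to 0.0703. The main coding transcript (ENST00000452783.6) held 61.5% of SUN1 counts, and 2 retained-intron transcripts held 17.8% and 4.62%. The annotated GET4 gene overlaps SUN1 on the same strand, beyond the ends of these transcripts.

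SUN2 (ENSG00000100242.15, chr22:38734725-38794143, minus strand) was at 1.89, 0.778, 3.21, 2.6 and 0.751 CPM in gCtl, at 1.35, 1.56 and 1.14 CPM in g1 and at 0.359 and 0.291 CPM in g2. Each g2 library held 2 SUN2 reads, below the 4.24 to 18.4 reads in gCtl. Without a filter the SUN2 log2 fold change was -1.0 over both guides (edgeR adjusted p = 0.256) and -2.43 in g2 (SE 0.88, edgeR adjusted p = 0.0482). With edgeR's own expression filter the g2 value was -2.43 (edgeR adjusted p = 0.0418). Both g2 values rest on those reads. The annotation places GTPBP1 and several non-coding genes on the other strand of SUN2, and DNAL4 on its own strand.

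The KASH partners of SUN1 and SUN2 reach from the outer nuclear membrane to actin, microtubules and keratins. Of 6 such genes, 4 were tested. Over both guides edgeR and limma called 0 of 4 and DESeq2 1, against 19.2% of all tested genes called by edgeR. All 4 had an unadjusted edgeR p under 0.05. Of all 11640 tested genes, 2752 passed even the adjusted p of 0.05 when no fold change was required. The median log2 fold change of the 4 was 0.49, with SYNE1 (0.45), SYNE2 (0.52) and SYNE3 (0.64) above 0 and SYNE4 (-0.66) below. SYNE2, nesprin-2, had an edgeR adjusted p of 0.0105 but was under the 1.5-fold limit. In g2, 2 of the 4 were called, against 23.7% of all tested genes (13.0% lower and 10.7% higher). These 2 were SYNE2, higher (0.62, edgeR adjusted p = 0.00867), and SYNE4, which ties the nucleus to kinesin, lower (-1.34, edgeR adjusted p = 0.00716). SYNE1 to SYNE4 are named here after their values were seen.

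Among 10 other proteins of the inner membrane and the lumen, 2 were called over both guides, both lower (20% of the list, against 19.2% of all tested genes), and the median of the list was 0.06. NRM, which codes nurim, a membrane-spanning protein of the envelope, was at 5.75 to 11.6 CPM in gCtl and 1.89 to 5.17 CPM in the other libraries. NRM fell by 1.42 on the log2 scale (SE 0.33, edgeR adjusted p = 0.00743). TMEM201, which codes SAMP1, a protein that associates with emerin and SUN1, was at 2.11 to 4.5 CPM in gCtl and 0.211 to 1.95 CPM in the other libraries. TMEM201 fell by 1.98 (SE 0.47, edgeR adjusted p = 0.00748), from few reads. Both were also called lower in g1 and in g2.

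Of 5 enzymes that process prelamin A and other farnesylated proteins, 1 was called (20% of the list, against 19.2% of all tested genes). RCE1, which removes the last residues after farnesylation, rose from a gCtl level of 18 ± 3.15 CPM (SD, n = 5) to 27.5 ± 7.32 CPM (SD, n = 5), a log2 fold change of 0.61 (SE 0.20, edgeR adjusted p = 0.0375). The call for RCE1 was kept in 11 of 23 alternatives, and was lost without gCtl 5 and without most other single libraries. Of 8 chromatin and kinase partners 2 were called (25%, against the same 19.2%). VRK1, the kinase that phosphorylates BAF and releases it from DNA, was at 18.2 to 21.1 CPM in gCtl and 29.4 to 49.6 CPM in the other libraries. VRK1 rose by 0.91 on the log2 scale (SE 0.16, edgeR adjusted p = 0.00153) and was called higher in g1 and in g2, but with protein-coding transcripts alone its value was 0.22 and was not called. HDAC3, a deacetylase that emerin and LAP2 beta bind, was at 12.5 to 19.7 CPM in gCtl and 5.52 to 10.6 CPM in the other libraries. HDAC3 fell by 0.93 (SE 0.22, edgeR adjusted p = 0.00677) and was called lower in g1 and in g2.

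Of 10 genes for the ESCRT machinery that seals the envelope after mitosis, 1 was called lower and 2 higher (30%, against the same 19.2%). CHMP3 was at 149.1 to 186.5 CPM in gCtl and 249.4 to 316.8 CPM in the other libraries, and rose by 0.79 on the log2 scale (SE 0.12, edgeR adjusted p = 0.000567). CHMP4A rose by 0.59 (SE 0.19, edgeR adjusted p = 0.0381), at the 1.5-fold limit, a call kept in 13 of 24 alternatives. CHMP2A fell by 0.70 (SE 0.19, edgeR adjusted p = 0.0146), but its value was not called with the trend on transcript length removed.

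The nuclear pore, which spans both membranes, had 31 tested genes. Over both guides 6 were called lower and 0 higher (DESeq2 and limma also called 6), 19.4% of the list against 19.2% of all tested genes, and the median of the list was -0.10. NUP93, of the inner ring, was at 127 to 170 CPM in gCtl and 54.4 to 109.9 CPM in the other libraries, and fell by 0.87 on the log2 scale (SE 0.18, edgeR adjusted p = 0.00323). NUP188, its partner in the inner ring, fell by 1.08 (SE 0.25, edgeR adjusted p = 0.00631). The membrane-spanning pore proteins NUP210 and NDC1 fell by 1.19 (SE 0.28, edgeR adjusted p = 0.00795) and by 0.95 (SE 0.23, edgeR adjusted p = 0.00801). The knockdown-labelled libraries were all below the gCtl range for NUP93 and NUP210, and overlapped it for NUP188 and NDC1. In g1 7 pore genes were called lower and 1 higher, 25.8% of the list against 16.8% of all tested genes. In g2 5 were called lower and 2 higher, 22.6% of the list against 23.7% of all tested genes.

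**Figure D4:**
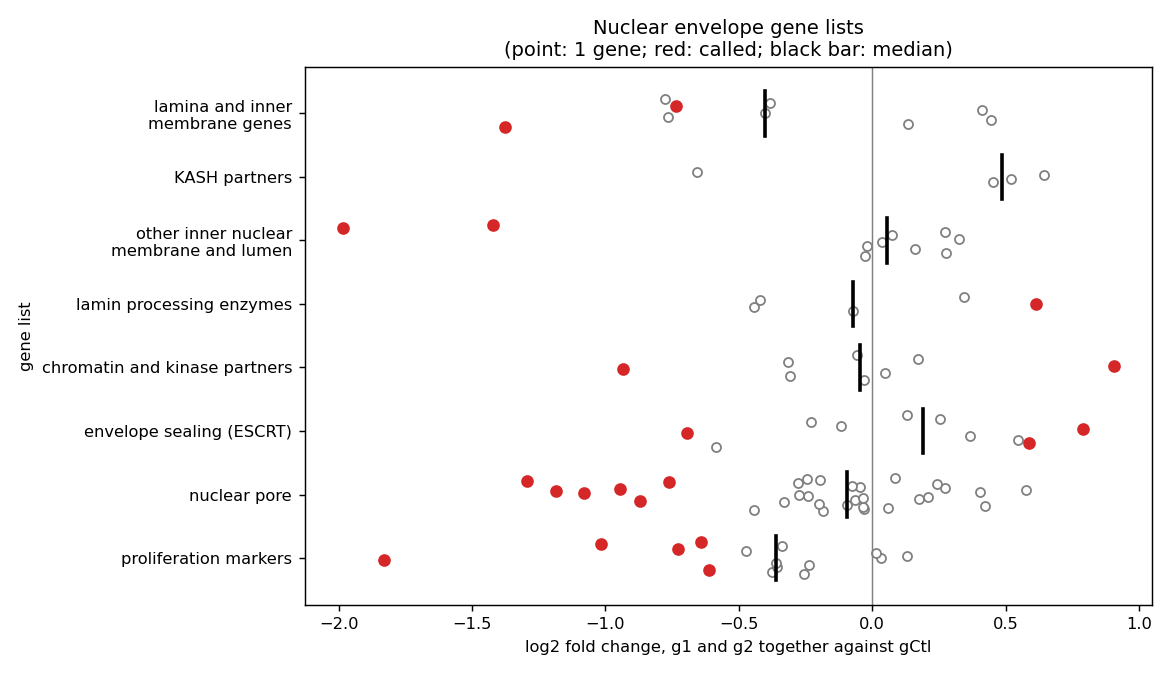
log2 fold change over both guides (x axis) of the tested genes of each nuclear envelope list and of the proliferation markers (y axis). Each point is a gene, red points are called and the black bar is the list's median, which runs from -0.40 for the lamina and inner membrane genes to 0.49 for the KASH partners.

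Some proliferation markers were also lower. The summed level of the 15 markers was 2359 to 3323 CPM in gCtl, 1629 to 3388 CPM in g1 and 1856 and 1940 CPM in g2. Over both guides 5 of them were called lower and 0 higher, 33.3% of the list against 19.2% of all tested genes, and the median log2 fold change was -0.36. MCM2, a subunit of the replicative helicase, fell by 1.83 on the log2 scale (SE 0.37, edgeR adjusted p = 0.00327) and PLK1, a mitotic kinase, by 1.02 (SE 0.22, edgeR adjusted p = 0.00437). CDK1 fell by 0.61 (SE 0.15, edgeR adjusted p = 0.0112) and TYMS by 0.64 (SE 0.20, edgeR adjusted p = 0.0334). With the length and GC trends removed, 2 of the 15 were called lower, against 2048 of 11640 tested genes called (1046 of them lower). Without gCtl 1, 2 of the 15 were again called lower, against 1758 of 11640 called (1025 of them lower). The part of cell cycle state in the levels of the lamina genes was not tested.

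The tested genes whose log2(CPM + 1) followed EMD most closely across the 10 libraries were TMEM201 (Pearson r = 0.976), C12orf57 (r = 0.976) and NDUFA12 (r = 0.974). For LMNA they were PHYKPL (r = 0.945), EEF1A1 (r = 0.943) and PERP (r = 0.94), and for LMNB1 they included PTPRE (r = 0.956) and TPST2 (r = 0.928). These values describe 10 libraries that fall into groups and share their scaling factors.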

How the data were processed

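RNA was measured in 10 QuantSeq 3' libraries of Caco-2 cells, 5 labelled gCtl, 3 labelled g1 and 2 labelled g2. The authors deposited estimated counts per transcript, made with kallisto (version 42.5 in the submitters' processing notes) against Gencode transcripts, with no normalization and no pooling. Estimated counts were summed per gene identifier and rounded, and genes above 3 RPM in at least 20% of libraries with a protein-coding transcript were kept (11640). edgeR 4.0.16 in R 4.3.3 was used with TMM scaling and the quasi-likelihood test, in a 2-group fit for both guides together and a 3-group fit for each guide. Printed CPM are TMM-scaled. Shares of transcripts were compared with exact permutation tests (scipy 1.17.1). DESeq2 1.42.0 and limma 3.58.1, the latter on log2(RPM + 1), were alternatives.

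Transcript classes and positions came from GENCODE v29 on GRCh38, since the identifiers hold no coding length, which the planned classes had assumed. Total estimated counts per library were 3838803 to 8730468. On simulated data, edgeR recovered 76.5%, 63.5% and 55% of genes changed 2-fold for both guides, g1 and g2. The simulation gave every gene the same spread between libraries. That spread was set below the common biological coefficient of variation of the data (0.238), so these shares may be too high for the real libraries. The 10 genes and the lists were chosen with earlier results of these data known. Named were the 10 genes, at most 4 called genes per list with the smallest adjusted p over both guides, LHFPL3-AS2 and the 3 genes most correlated with EMD, LMNA and LMNB1, of which 1 is not reported here. Members of lists named beyond this rule (SYNE1 to SYNE4, NUP205, RAE1) were chosen after their values were seen.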

Additional observations from a re-analysis of the deposited data

Results flagged for a closer look

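For the 9 tested lamina and inner membrane genes, no gCtl library was far enough from the other 4 to pass Dixon's limit (g1 and g2 are too small for it), and none of the 9 differed between g2 and g1 past the edgeR test. The largest gap of a gCtl library from its neighbour was 0.65 of the gCtl range, for EMD in gCtl 5. In the nuclear pore list 3 genes differed in the direct edgeR test of g2 against g1, against 4.98% of all tested genes. NUP205, of the inner ring, had a gCtl level of 19.9 ± 3.87 CPM (SD, n = 5), a g1 level of 16.4 ± 3.60 CPM (SD, n = 3) and 25.6 and 56.8 CPM in g2, a difference between guides of 1.34 on the log2 scale (edgeR adjusted p = 0.0175). RAE1, an mRNA export factor, had a gCtl level of 141.5 ± 15 CPM (SD, n = 5), a g1 level of 143.6 ± 15.6 CPM (SD, n = 3) and a g2 level of 83.2 ± 6.55 CPM (SD, n = 2), a difference of -0.79 (edgeR adjusted p = 0.0179). NUP93 was called lower in both groups and was lower still in g2, with a difference of -0.70 (edgeR adjusted p = 0.0414).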

How the results depend on the processing

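Among the alternative values of the 9 tested genes, 791 kept their direction and their side of the threshold, 47 lost the call, 12 gained it and 14 changed sign. EMD stayed called over both guides and in g2 in 24 of 24 alternatives each, between -1.63 and -1.11 over both guides. With a test against 1.5-fold, 1, 0 and 1 of the 9 were called over both guides, in g1 and in g2, of 488, 506 and 802 genes in all, with 92 for g2 against g1 and 1 in the partner lists. With protein-coding transcripts alone, 1 of the genes was called over both guides and 1 in g1, and 322 genes in all differed between guides. In g2 that fit called EMD and also SUN2 (-6.33, edgeR adjusted p = 0.0191), whose main coding transcript was at 0 CPM in g2. With no filter 1 (LMNA) differed between guides. Leaving out a library gave 1 to 3, 1 to 5 and 2 to 3 called genes of the 9 over both guides, in g1 and in g2, and 10 to 16 in the partner lists. Over all genes it gave 1703 to 2431, 1255 to 2261, 1505 to 3124 and, for g2 against g1, 266 to 865. Signs changed with protein-coding transcripts alone for LMNA (-0.57) and BANF1 (0.0037) over both guides, BANF1 in g1 (0.17), and LBR (0.013) and BANF1 (-0.47) between guides. Without 1 library they ranged across 0 for LMNA over both guides (-0.12 to 0.40) and TMPO in g2 (-0.44 to 0.18). Between guides they did so for LBR (-0.28 to 0.20), LMNB2 (-0.23 to 0.75), SUN1 (-0.10 to 0.59) and LEMD3 (-0.017 to 0.62). The cause was not tested. The share of called genes that were lower was 57.5%, 54.9% and 68.6% over both guides, in g2 and between guides, 69.4%, 73.3% and 83.4% with library totals, and 71.9%, 76.3% and 84.8% with limma. With the 1.5-fold test it was 67.6% over both guides. Library totals moved the median of all genes from -0.00 to -0.16 in g2. No paired analysis was possible because the labels carry no replicate numbers. Counts of 12 to 51 for BANF1 and 2 per g2 library for SUN2 limit their precision.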

Other observations

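Lamin A counts sat on different transcripts in different libraries. The full lamin A mRNA (ENST00000368300.8) had a gCtl level of 28.1 ± 20.9 CPM (SD, n = 5), a g1 level of 0.819 ± 0.823 CPM (SD, n = 3) and a g2 level of 34 ± 24.5 CPM (SD, n = 2). A second coding transcript with the same end (ENST00000347559.6) was at 0.0228 ± 0.0508, 6.89 ± 1.24 and 0.214 ± 0.303 CPM in the same order. A 3' read at this shared end fits either transcript, and no test was run on these levels.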
